A study of Mus musculus with 16 samples.

Results

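The genes described here encode the surface molecules through which antigen presenting cells stimulate or restrain T cells. They were chosen by name as the partners of CD28, CTLA4, CD40L and PD-1, namely *Cd80*, *Cd40*, *Cd274* and, because the panel holds it, *Cd86*, which makes 4 of the 734 genes measured. Expression was quantified with a NanoString nCounter myeloid panel in splenic CD11b+ cells of 16 wild type C57BL/6 mice, 4 in each of 4 groups. Naive mice were left untreated, and the mice of the other groups were injected with 20000000 BALB/c spleen cells. These were given alone, with CTLA4-Ig (abatacept, 150 μg on day 2), or with CTLA4-Ig and EPO (epoetin alfa, 5000 U/kg daily), and all spleens were taken on day 7. The groups are called naive, BALB/c cells, CTLA4-Ig and CTLA4-Ig/EPO below.

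CD80 and CD86 bind CD28 on T cells and deliver the costimulatory signal that accompanies antigen recognition, and they bind the inhibitory receptor CTLA4 with higher affinity, which is why CTLA4-Ig, the extracellular part of CTLA4 fused to an immunoglobulin tail, blocks costimulation. CD40 receives CD40L from activated T cells and licenses the presenting cell to raise its own costimulatory molecules. CD274, better known as PD-L1, binds PD-1 on T cells and dampens their response. The panel reads mRNA, and the surface proteins were not measured here.

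The labels leave several points unsettled. A protocol field swaps the letter codes of the naive and BALB/c cells groups relative to names and treatment fields, so comparisons with naive mice rest on the names. The cells were injected i.p. and were depleted of T cells by the labels, whereas the study's results give i.v. injection, and the profiled cells are CD11b+CD11c- in the results but CD11b+ by positive selection in the methods and labels. The defining myeloid genes were present in every mouse, with lowest recovered counts of 476 for *Itgam* (CD11b), 1418 for *Csf1r* and 842 for *Adgre1*. RNA of other cells was present as well, since the B cell gene *Ms4a1* had a lowest count of 473 and the T cell gene *Cd247* one of 89. *Itgax*, which encodes CD11c, had a lowest count of 151.

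Levels are the log2 values that the authors normalized and deposited, so a difference of 1 is a doubling. They are whole molecule counts times a factor per mouse, and total recovered counts ranged from 562760 to 912328 per mouse. The factor was 1.27 to 1.85 in naive mice and 0.560 to 0.791 in all others, and every difference from naive mice on the authors' scale includes it. The members were well counted, between 75 (*Cd40* in a naive mouse) and 1914 (*Cd274* after BALB/c cells). A gene was called where its *P* value from a limma fit of the 4 group means, adjusted over all 734 genes by Benjamini and Hochberg's method, was below 0.05. These *P* values set differences of group means against the spread between these mice. The groups were sampled as whole selected populations, in which fewer cells of a type and less RNA per cell cannot be told apart.

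*Cd80* encodes the CD28 and CTLA4 ligand B7-1. Its log2 levels were 9.14, 9.42, 9.31 and 9.36 in the naive mice and 8.75, 8.88, 8.49 and 8.60 after BALB/c cells. With CTLA4-Ig they were 8.70, 8.69, 8.71 and 8.65, and with CTLA4-Ig/EPO 8.28, 8.17, 8.001 and 7.95. Every naive mouse was above every other mouse, the BALB/c cells and CTLA4-Ig mice overlapped, and all 4 mice with EPO were below the rest. The mean fell from 9.31 ± 0.12 in naive mice (SD, n = 4 in each group) through 8.69 ± 0.02 with CTLA4-Ig and 8.68 ± 0.17 after BALB/c cells to 8.10 ± 0.15 with CTLA4-Ig/EPO. The middle neighbours of this order did not differ (adjusted *P* = 0.989).

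*Cd86* encodes B7-2, which shares both receptors with B7-1. Naive mice had log2 levels of 9.44, 9.19, 9.46 and 9.42, and mice given BALB/c cells 9.43, 9.52, 9.51 and 9.60. The levels were 9.41, 9.48, 9.58 and 9.52 with CTLA4-Ig and 9.37, 9.29, 9.64 and 9.42 with CTLA4-Ig/EPO. All groups overlapped, and the highest and lowest mice outside the naive group both had received EPO. Group means lay between 9.38 ± 0.13 in naive mice and 9.52 ± 0.07 after BALB/c cells, with 9.50 ± 0.07 for CTLA4-Ig and 9.43 ± 0.15 for CTLA4-Ig/EPO between them, and no neighbours in this order differed beyond their spread (adjusted *P* between 0.595 and 0.976).

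*Cd40* encodes the receptor of CD40L. Its levels were 7.12, 7.17, 7.58 and 7.21 in naive mice and 7.34, 7.43, 7.48 and 7.15 after BALB/c cells. CTLA4-Ig mice were at 7.44, 7.59, 7.66 and 7.61, and mice given EPO as well at 7.46, 7.26, 6.97 and 6.97. The CTLA4-Ig mice were the tightest and highest group, yet a mouse with EPO, at 7.46, was just above the lowest of them at 7.44. The means ran from 7.58 ± 0.09 with CTLA4-Ig through 7.35 ± 0.14 after BALB/c cells and 7.27 ± 0.21 in naive mice to 7.16 ± 0.24 with CTLA4-Ig/EPO. No adjacent means in this order differed (adjusted *P* between 0.478 and 0.691).

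*Cd274* encodes PD-L1. Naive mice had levels of 9.41, 9.79, 9.72 and 9.51, and mice given BALB/c cells 10.24, 10.28, 10.14 and 10.23. CTLA4-Ig mice had 10.16, 10.15, 10.13 and 10.02, and CTLA4-Ig/EPO mice 9.12, 9.16, 8.65 and 8.71. The naive mice thus sat in a gap between the 8 mice given BALB/c cells without EPO, which overlapped each other, and the 4 mice given EPO. The order of means was 10.22 ± 0.06 after BALB/c cells, 10.12 ± 0.07 with CTLA4-Ig, 9.61 ± 0.18 in naive mice and 8.91 ± 0.27 with CTLA4-Ig/EPO, and only the first neighbours did not differ (adjusted *P* = 0.893).

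**Figure D1:**
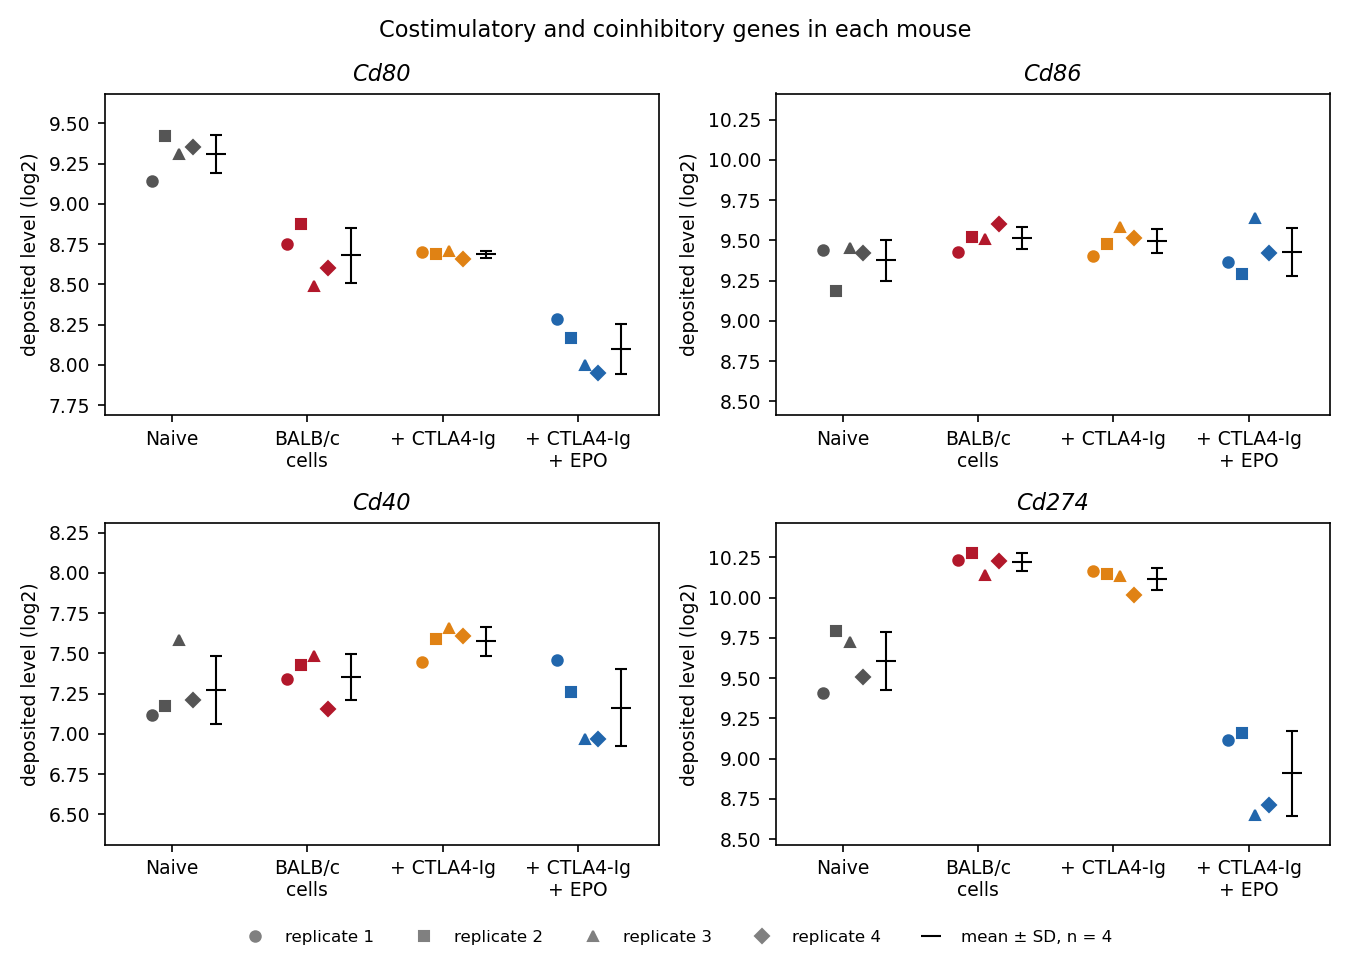
Log2 level of *Cd80*, *Cd86*, *Cd40* and *Cd274* in each of 16 mice (symbols mark replicate numbers) with the group mean ± SD (n = 4); the vertical axis spans the same log2 range in each panel. The 4 CTLA4-Ig/EPO mice lie lowest for *Cd80* (7.95 to 8.28) and *Cd274* (8.65 to 9.16), while for *Cd86* all groups overlap.

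Across the 4 groups, limma's moderated F-test called *Cd80* (adjusted *P* = 6.29e-07) and *Cd274* (5.3e-07), which is 2 of the 4 members against 85.3% of all genes tested. *Cd40* narrowly missed the threshold (adjusted *P* = 0.0516), and *Cd86* was not called (0.473). The spread of group means was 1.31 log2 units for *Cd274*, 1.21 for *Cd80*, 0.41 for *Cd40* and 0.14 for *Cd86*.

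The sequences before the start sites of *Cd80* and *Cd274*, the 2 members with a promoter window, are shown because both fell with EPO. Each is the 250 bases before 1 RefSeq start in GRCm38.p6, on the plus strand and 5′ to 3′, at chr16:38458683-38458932 for *Cd80* and chr19:29367188-29367437 for *Cd274*, with motif matches in capitals. Both windows lie within the span that RefSeq gives the gene, chr16:38457430-38495958 and chr19:29362107-29388095, so a transcript of each gene starts further upstream.
Cd80: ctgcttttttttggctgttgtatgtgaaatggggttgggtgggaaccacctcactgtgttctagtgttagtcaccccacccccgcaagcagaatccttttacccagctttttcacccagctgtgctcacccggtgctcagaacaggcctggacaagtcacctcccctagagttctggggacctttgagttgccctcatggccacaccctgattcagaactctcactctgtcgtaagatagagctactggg
Cd274: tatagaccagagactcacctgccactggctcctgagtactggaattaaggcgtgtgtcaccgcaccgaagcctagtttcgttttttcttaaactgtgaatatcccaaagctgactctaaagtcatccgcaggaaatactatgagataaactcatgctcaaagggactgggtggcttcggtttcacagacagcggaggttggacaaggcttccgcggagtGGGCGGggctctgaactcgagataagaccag
Both strands were searched for 5 motifs, any of which can overlap another. The share given for each is of the 32851 promoter windows of this length in the reference used, which has none for *Cd40* and *Cd86*. The motifs were the NF-kB motif (7.25%), the interferon-stimulated response element GAAANNGAAA (2.98%), the gamma-activated site TTCNNNGAA (7.02%), the AP-1 site TGACTCA (4.46%) and the GC box GGGCGG (32.7%). The *Cd274* window held 1 GC box, beginning 31 bases before the start, and the *Cd80* window held none of the 5 motifs. A match is a run of letters and no evidence of binding, and an absence says only that the letters are not in this window.

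The CTLA4-Ig/EPO group was compared with the CTLA4-Ig group, from which it differs by the EPO given. Of the 4 members, 3 were lower with EPO and 1 was not called, against 51.1% of all genes called and 28.3% called lower. *Cd274* fell most, 2.31-fold (log2 difference -1.21, standard error 0.12, adjusted *P* = 1.45e-06), and was lower in 4 of 4 mice. *Cd80* fell 1.50-fold (-0.59, standard error 0.10, adjusted *P* = 0.000238). These 2 members did not overlap between the groups, as was the case in the same direction for 27.5% of all genes. *Cd40* was lower by a smaller amount (-0.41, standard error 0.13, adjusted *P* = 0.0171), with overlapping values. *Cd86* did not pass the test, with a log2 difference of -0.07 and a 95% confidence interval from -0.27 to 0.14 (adjusted *P* = 0.595).

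The call of *Cd40* rested on single mice. It was lost without CTLA4-Ig/EPO replicate 3 (log2 difference -0.35, adjusted *P* = 0.0567) or replicate 4 (-0.35, 0.0576), and also in a limma-voom fit of counts scaled by their totals (-0.32, 0.134), which changes the scaling and the model of the variance together. Ranked from the largest fall among the 734 genes, *Cd274* was number 39, *Cd80* 167, *Cd40* 225 and *Cd86* 374, so only *Cd274* was among the genes that fell furthest. The median of the log2 differences of all genes was -0.07 on the authors' scale and -0.28 once each mouse was centred on its own median. On that centred scale the members changed by -1.41 (*Cd274*), -0.79 (*Cd80*), -0.61 (*Cd40*) and -0.27 (*Cd86*, adjusted *P* = 0.0732).

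BALB/c cells alone were compared with naive mice, which were left untreated. No group was given cells of the mice's own strain, so injection of cells and the allogeneic stimulus cannot be told apart. On the authors' scale *Cd274* rose 1.53-fold (log2 difference 0.61, standard error 0.12, adjusted *P* = 0.000503), and *Cd80* fell 1.55-fold (-0.63, standard error 0.10, adjusted *P* = 8.15e-05). The groups did not overlap in either gene. *Cd86* (0.14, adjusted *P* = 0.195) and *Cd40* (0.08, 0.595) were not called. That is 2 of the 4 members, against 70.3% of all genes.

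The zero point of this comparison depends on the scaling. On the authors' scale the median of the log2 differences of all genes, BALB/c cells minus naive, was -0.65. The fall of *Cd80* was about the size of this median difference. With each mouse centred on its median, *Cd80* differed by 0.10 (adjusted *P* = 0.465), *Cd86* was higher by 0.87 (1.79e-05), *Cd40* by 0.81 (0.000174) and *Cd274* by 1.34 (2.38e-07). With limma-voom on counts scaled by totals the differences were 0.46 for *Cd80* (adjusted *P* = 0.0149), 1.23 for *Cd86*, 1.18 for *Cd40* and 1.70 for *Cd274*. The rise of *Cd274* was thus called on each of these scales, whereas the direction of *Cd80* and the calls of *Cd86* and *Cd40* were not the same on them.

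**Figure D2:**
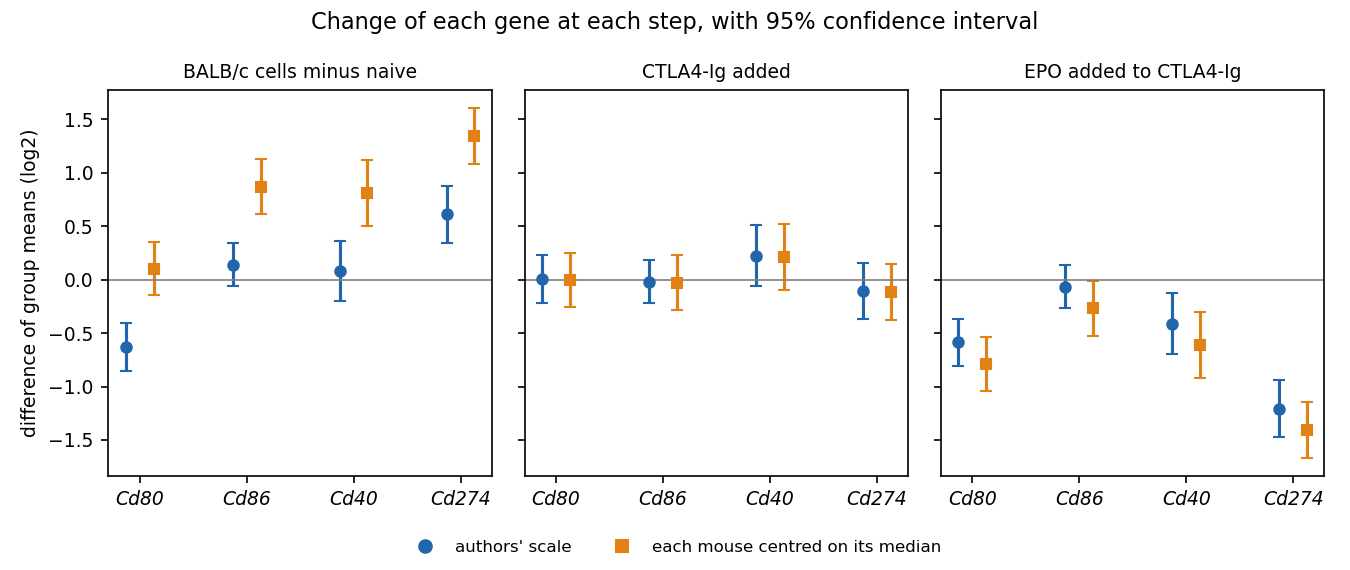
Difference of group means (log2, with 95% confidence interval) for each gene at each step, on the authors' scale (circles) and with each mouse centred on its median over all genes (squares). With BALB/c cells the scales differ by 0.73, so that *Cd80* lies at -0.63 or at 0.10, whereas with EPO *Cd274* (-1.21 or -1.41), *Cd80* (-0.59 or -0.79) and *Cd40* (-0.41 or -0.61) lie below 0 on both.

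The CTLA4-Ig group, given a drug that occupies CD80 and CD86, was compared with the BALB/c cells group. None of the 4 members was called, and limma called 0 of the 734 genes (0%), with 70 at an unadjusted *P* below 0.05 and 76 by the methods' t-test at that unadjusted threshold, a test the methods give for 2 groups in general, naming limma for the panel. The log2 differences were 0.01 for *Cd80* (95% confidence interval -0.21 to 0.23), -0.02 for *Cd86* (-0.22 to 0.18), 0.22 for *Cd40* (-0.06 to 0.51) and -0.11 for *Cd274* (-0.37 to 0.16). *Cd40* had an adjusted *P* of 0.691, and in the methods' t-test, without adjustment, its *P* was 0.0391. For *Cd40* the interval reaches 0.51, beyond the size of its change with EPO.

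The remaining comparisons share groups with those above and are given side by side. CTLA4-Ig/EPO against BALB/c cells alone called 2 of the members (50.5% of all genes), *Cd274* at -1.31 (adjusted *P* = 6.36e-07) and *Cd80* at -0.58 (0.000286), while *Cd40* at -0.19 (0.256) and *Cd86* at -0.08 (0.484) were not called. Both were called there after centring (*Cd40* -0.40, 0.0272, and *Cd86* -0.30, 0.0483), and *Cd40* also after quantile normalization (-0.34, 0.0498). CTLA4-Ig against naive mice called 2 (68.9%), *Cd274* at 0.51 (0.00225) and *Cd80* at -0.62 (9.13e-05), with *Cd40* at 0.30 (0.0536) and *Cd86* at 0.12 (0.273). *Cd40* and *Cd86* were both called in it after centring (1.03 and 0.84), quantile normalization (0.95 and 0.89) and limma-voom on totals (1.42 and 1.22). The fall of *Cd80* in it turned direction, to 0.10 after centring (adjusted *P* = 0.479) and 0.092 after quantile normalization (0.505). With limma-voom on totals it was 0.48 and called higher (adjusted *P* = 0.0113). On the authors' scale *Cd40* also passed with trended moderation (adjusted *P* = 0.0486), with array weights (0.0367) and without the lowest 25% of genes (0.0430), and without naive replicate 3 (0.41, 0.0115) or CTLA4-Ig replicate 1 (0.35, 0.0495). CTLA4-Ig/EPO against naive mice also called 2 (70.8%). In that comparison *Cd80* was at -1.21 (1.02e-07) and *Cd274* at -0.70 (0.000158), with *Cd40* at -0.11 (0.478) and *Cd86* at 0.05 (0.616). Against naive mice these differences carry the shift of scale. With limma-voom on totals, *Cd80* did not differ between CTLA4-Ig/EPO and naive mice beyond their spread (-0.0086, adjusted *P* = 0.967). *Cd274* turned direction there, to 0.50 with limma-voom on totals, where it was called higher (adjusted *P* = 0.0121), and to 0.16 with quantile normalization (0.303). After centring, CTLA4-Ig/EPO minus naive was -0.69 for *Cd80* (adjusted *P* = 0.000136), -0.18 for *Cd274* (0.221), 0.41 for *Cd40* (0.0246) and 0.57 for *Cd86* (0.000952).

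The difference between 2 genes of the same mouse does not contain that mouse's scaling factor, so the members were also compared with each other. Probes of different genes are not equally efficient, and only the change of such a difference between groups is read here. There were 6 pairs and 3 steps, each tested with a two-sided exact permutation test of 4 against 4 mice, where the smallest possible *P* is 0.0286 and adjustment over the 18 tests makes it 0.0468.

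*Cd86* minus *Cd274*, a costimulatory against an inhibitory ligand, was 0.03, -0.61, -0.27 and -0.09 in naive mice and -0.81, -0.76, -0.63 and -0.63 after BALB/c cells. It was -0.76, -0.67, -0.55 and -0.50 with CTLA4-Ig and 0.25, 0.13, 0.99 and 0.71 with CTLA4-Ig/EPO. The 4 mice given EPO were above all other mice. The difference moved by -0.47 with BALB/c cells and by 1.14 when EPO was added, a 2.20-fold relative shift from *Cd274* toward *Cd86* (exact permutation *P* = 0.0286 and adjusted *P* = 0.0468 for each).

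*Cd80* minus *Cd86*, the pair that shares its receptors, was -0.30, 0.24, -0.14 and -0.06 in naive mice and -0.68, -0.64, -1.02 and -0.999 after BALB/c cells. It was -0.71, -0.79, -0.88 and -0.86 with CTLA4-Ig and -1.08, -1.13, -1.64 and -1.47 with CTLA4-Ig/EPO. The pair moved toward *Cd86* by -0.77 with BALB/c cells and by a further -0.52 with EPO, without overlap at either step (exact permutation *P* = 0.0286, adjusted *P* = 0.0468 for each). With CTLA4-Ig the change was 0.03 (exact permutation *P* = 0.857).

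*Cd80* minus *Cd274* went from -0.30 ± 0.12 in naive mice (SD, n = 4 in each group) to -1.54 ± 0.12 after BALB/c cells, -1.43 ± 0.05 with CTLA4-Ig added and -0.81 ± 0.14 with CTLA4-Ig/EPO. EPO moved it by 0.62, since *Cd274* fell further than *Cd80*, and BALB/c cells had moved it by -1.24 (exact permutation *P* = 0.0286 and adjusted *P* = 0.0468 for both). *Cd40* minus *Cd274* moved by -0.53 with BALB/c cells and by 0.79 with EPO at the same *P* values. *Cd80* minus *Cd40* moved by -0.71 and by -0.17, again at the same *P* values. *Cd86* minus *Cd40* moved by 0.06 with BALB/c cells (exact permutation *P* = 0.629) and by 0.35 with EPO (exact permutation *P* = 0.0857, adjusted *P* = 0.119). It was the only pair to pass with CTLA4-Ig, at -0.24 (exact permutation *P* = 0.0286, adjusted *P* = 0.0468), with mice at 1.96, 1.89, 1.93 and 1.91 below 2.09, 2.09, 2.03 and 2.45 after BALB/c cells. The mouse at 2.45 was well above the others of its group, so the size of this change depends in part on it.

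**Figure D3:**
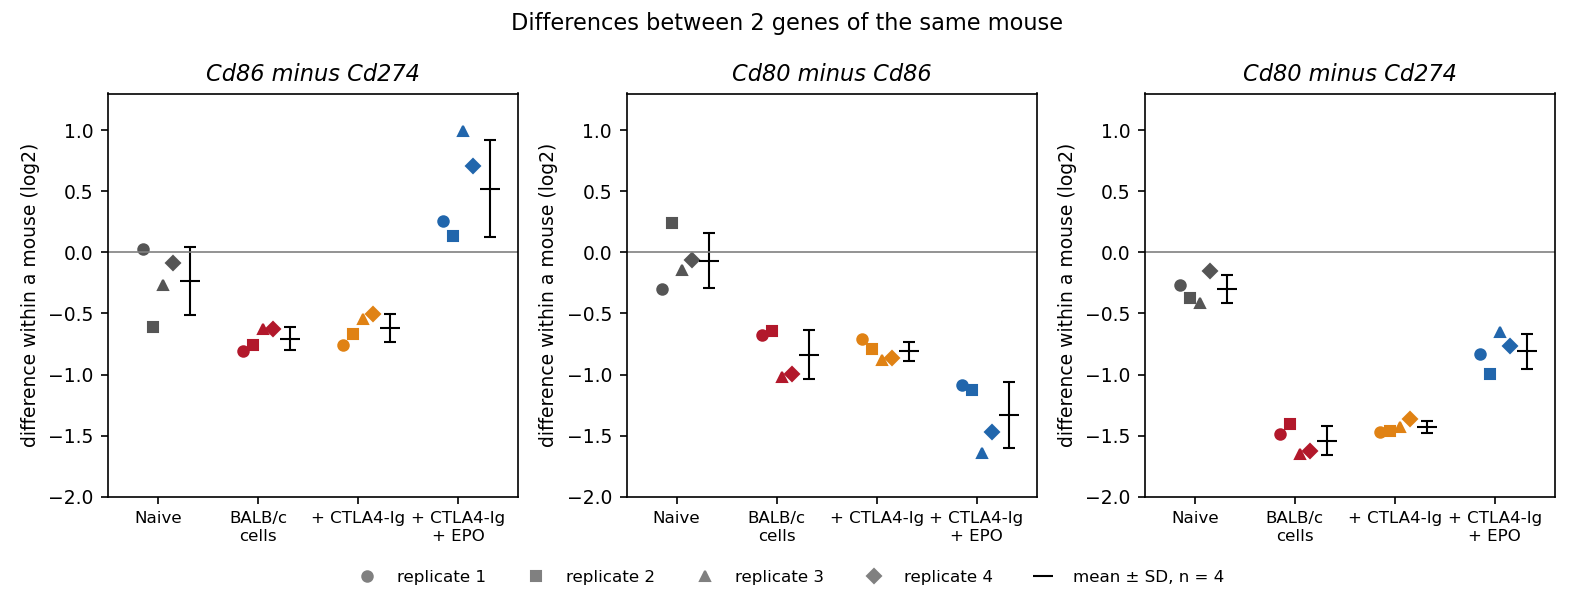
Log2 level of one gene minus that of another in the same mouse for 3 pairs, by group (symbols mark replicate numbers), with mean ± SD (n = 4). *Cd86* minus *Cd274* is higher in all 4 CTLA4-Ig/EPO mice (0.13 to 0.99) than in the 8 mice given BALB/c cells without EPO (-0.81 to -0.50).

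The families of these molecules were described by lists of their ligands and receptors. The B7 and CD28 list has 13 genes in the panel, of which 1 was higher and 7 were lower with EPO, with a median log2 difference of -0.59, beside 167 higher and 208 lower among all genes (126 and 276 after centring) and their median of -0.07. Leaving out *Cd80*, *Cd86* and *Cd274*, 1 of 10 was higher and 5 were lower (median -0.58, and -0.79 with each mouse centred on its median). Among these others the receptors fell furthest, with *Ctla4* at -2.04 (standard error 0.19, adjusted *P* = 6.73e-07), *Cd28* at -1.97 (0.18, 3.65e-07), *Icos* at -0.96 (0.17, 0.000243) and *Btla* at -0.95 (0.15, 0.000109). *Pdcd1*, which encodes PD-1, had a difference of -0.70 that was not called (standard error 0.43, adjusted *P* = 0.193) and a mean count of only 14.4.

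Among the other ligands, *Icosl*, the partner of ICOS, fell by 0.47 (standard error 0.13, adjusted *P* = 0.0061). *Pdcd1lg2*, which encodes PD-L2, the second ligand of PD-1, had a difference of -0.42 that missed the threshold (adjusted *P* = 0.0614), and it passed on the centred scale (-0.62, 0.00243) and without CTLA4-Ig replicate 3 (-0.49, 0.0464) or CTLA4-Ig/EPO replicate 2 (-0.54, 0.0195). *Cd276* (-0.28, 0.502) and *Vtcn1* (0.21, 0.675) had mean counts of 21.5 and 14.1 and were not called. *Vsir*, which encodes the inhibitory molecule VISTA, was the gene of this list that rose, from 10.26 to 10.82 (0.56, standard error 0.10, adjusted *P* = 0.000289), and it stayed higher after centring (0.36, 0.0075).

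After BALB/c cells alone, 7 of the 13 were higher than in naive mice and 4 were lower (9 and 2 after centring), beside 87 and 429 of all genes (242 and 196 after centring). *Ctla4* (1.70), *Cd28* (1.33), *Icos* (1.41), *Btla* (1.51), *Pdcd1* (1.95) and *Icosl* (0.81) rose with *Cd274*, and *Vsir* (-1.80), *Cd276* (-1.13) and *Vtcn1* (-1.95) fell with *Cd80*. Like *Cd80*, *Cd276* was not called after centring (-0.40, adjusted *P* = 0.318). *Pdcd1lg2* was not called (-0.03, adjusted *P* = 0.877), although it was higher by 0.70 after centring. CTLA4-Ig changed none of the 13 at the adjusted threshold in limma, and its differences included -0.94 for *Pdcd1*, -0.69 for *Ctla4* and -0.36 for *Icos*.

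The TNF family list holds CD40 and its relatives, with 10 of 15 genes in the panel. With EPO 1 was higher and 7 were lower (median -0.90), beside 167 and 208 of all genes (median -0.07), and without *Cd40* 1 of 9 was higher and 6 were lower. *Cd40lg*, the ligand of CD40, fell from 6.94 to 5.05 (log2 difference -1.88, standard error 0.24, adjusted *P* = 1.17e-05), a larger change than that of its receptor. *Tnfsf4*, which encodes OX40L, fell by 1.18 (adjusted *P* = 0.000969) and its receptor gene *Tnfrsf4* by 0.91 (0.0182), though the latter was lost on leaving out CTLA4-Ig replicate 2 (-0.81, 0.0504), or CTLA4-Ig/EPO replicate 3 (-0.81, 0.0539) or 4 (-0.80, 0.056). *Tnfsf9*, which encodes 4-1BBL, fell by 1.08 (0.000843) and its receptor gene *Tnfrsf9* by 0.92 (0.0133), the latter not called by the methods' t-test after adjustment (0.0597). *Cd27* fell by 0.89 (0.000154), while its ligand gene *Cd70*, with a mean count of 7.75, had a difference of -0.50 that was not called (0.183, and 0.0459 without CTLA4-Ig replicate 1, where it was -0.73). *Tnfrsf14*, which encodes the BTLA partner HVEM, was the gene of this list that rose (0.88, adjusted *P* = 2.6e-05, and 0.68 after centring), and *Tnfrsf8* was not called (0.17, 0.606).

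**Figure D4:**
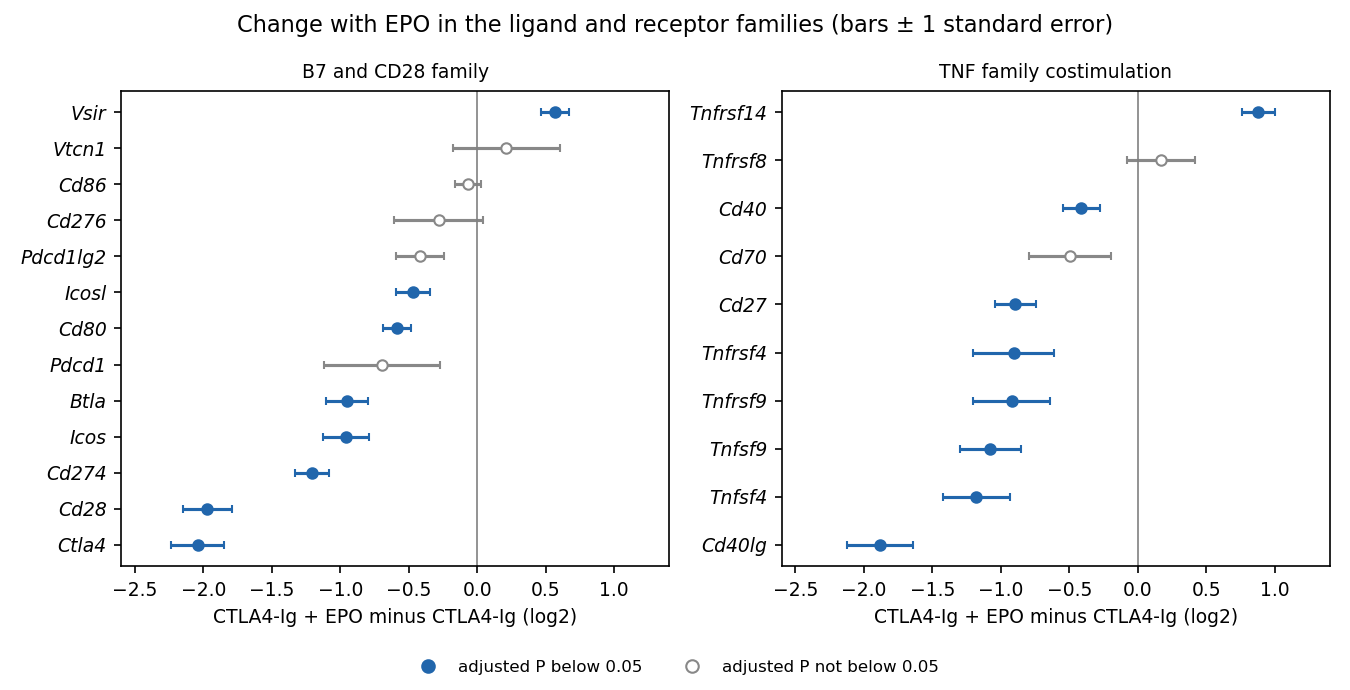
Log2 difference between CTLA4-Ig/EPO and CTLA4-Ig for the 13 genes of the B7 and CD28 family and the 10 of the TNF family in the panel, on the authors' scale, with bars of 1 standard error and filled points for genes called at an adjusted *P* below 0.05. *Vsir* (0.56) and *Tnfrsf14* (0.88) are the called genes to the right of 0, and they stay there after centring each mouse on its median, while *Ctla4* (-2.04), *Cd28* (-1.97) and *Cd40lg* (-1.88) lie furthest left. *Tnfrsf8* (0.17, or -0.03 after centring) is not called.

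After BALB/c cells, 2 genes of the TNF family list were higher than in naive mice and 3 were lower (median -0.22), and 4 were higher and 1 lower after centring (median 0.52), beside 87 higher and 429 lower of all genes, or 242 and 196 after centring. *Cd40lg* rose by 2.46 (adjusted *P* = 3.98e-07) and *Cd27* by 0.69 (0.000909). *Tnfrsf8* (-1.96), *Tnfrsf14* (-0.68) and *Tnfsf9* (-0.65) were the genes called lower, and of these only *Tnfrsf8* was called lower after centring (-1.23). CTLA4-Ig called 0 of the 10 in limma, and *Cd40lg* had a difference of 0.41 and *Tnfrsf4* one of -0.72.

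CD40 signals through TRAF adaptors to NF-kB. Of 18 genes in the list of that pathway 9 are in the panel, and with EPO 8 were lower and 0 higher (median -0.51), beside 28.3% lower of all genes. Of the 8, 3 were no longer called with limma-voom on totals, and 2 of these were also lost without single mice. *Tnfaip3*, an NF-kB target that restrains the pathway, fell most (-1.52, adjusted *P* = 2.3e-06), followed by *Birc3* (-0.78, 5.85e-06), *Traf1* (-0.78, 2.98e-05) and *Nfkbia* (-0.70, 0.00592). *Nfkbie* was the gene not called (-0.25, 0.187), and it was called after centring (-0.45, 0.0438). After BALB/c cells 1 was higher and 3 were lower on the authors' scale, and 8 higher and 0 lower after centring, beside 87 and 429 of all genes, or 242 and 196 after centring.

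*Cd274* is a well known target of interferon-γ signalling. Of 10 genes in a list from interferon-γ to the factors that act on *Cd274*, 7 are in the panel, and with EPO 5 were lower and 1 was higher (median -0.37), and 6 were lower and 0 higher after centring, beside 208 and 167 of all genes (median -0.07), or 276 and 126 after centring. *Ifng* fell by 1.17 (adjusted *P* = 0.000269), its receptor gene *Ifngr1* by 0.67 (0.000101), *Socs1* by 0.54 (0.00341) and *Irf1* by 0.37 (0.00787). *Irf1* was not called after quantile normalization (-0.27, 0.0986), and with limma-voom on totals neither *Irf1* (-0.27, 0.191) nor *Socs1* (-0.44, 0.0505) was. After BALB/c cells, when *Cd274* rose, none of the 7 was higher on the authors' scale in limma and 5 were lower (median -0.43), near the balance of all genes there (87 higher and 429 lower), and 3 were higher and 1 lower after centring.

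Other inhibitory ligands and receptors did not move one way. Of 20 listed genes 11 are in the panel, of which 4 rose and 2 fell with EPO (median 0.17, and -0.03 after centring, with 3 and 2 called), beside 167 and 208 of all genes, or 126 and 276 after centring. *Sirpa*, the CD47 receptor of macrophages, rose by 1.47 (adjusted *P* = 1.98e-08). *Tigit* fell by 1.50 (7.28e-06) and *Havcr2*, which encodes TIM-3, by 0.98 (6.82e-06). Antigen presentation genes, which provide the signal that costimulation accompanies, were lower with EPO in 12 of 13 and higher in 1 (median -0.68, and 12 and 0 after centring), beside 208 and 167 of all 734 genes, led by *H2-Eb1* (-1.24), *H2-Ob* (-1.11), *Cd74* (-1.05) and *H2-Ab1* (-1.04), and *Cd74* was not called after quantile normalization (-0.45, 0.131). Of the 12, 2 others were not called with limma-voom on totals. After BALB/c cells 8 of the 13 were higher and 1 was lower, and 12 and 0 after centring, beside 87 and 429 of all genes, or 242 and 196 after centring.

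Markers of other cells also differed between the groups. A marker list is said to be led by the gene with the highest mean count over all mice, which need not lead in each group. Summed over the 3 of 12 B cell genes in the panel, led by *Ms4a1*, the log2 level was 10.66 ± 0.05 in naive mice (SD, n = 4 in each group), 11.66 ± 0.11 after BALB/c cells, 11.59 ± 0.11 with CTLA4-Ig added and 10.98 ± 0.24 with CTLA4-Ig/EPO. The 5 of 14 T cell genes, led by *Cd28* and with *Cd247* as a defining one, gave 9.22 ± 0.22, 10.48 ± 0.15, 10.38 ± 0.05 and 8.79 ± 0.26 in the same order. Of these 5, *Cd28*, *Ctla4*, *Icos* and *Cd40lg* are the family genes described above, so the T cell sum is no separate observation from their falls. The 12 of 16 dendritic cell genes, led by *Ccr7* and including *Itgax*, *Flt3* and *Xcr1*, gave 12.20 ± 0.28, 13.22 ± 0.05, 13.11 ± 0.08 and 11.98 ± 0.15. With EPO 4 of these 12 were lower, *Ccr7* (-1.52), *Cd83* (-1.48), *Itgax* (-0.93) and *Flt3* (-0.85), beside 28.3% of all genes. *Xcr1* had a difference of 0.69 (adjusted *P* = 0.0111), and 7 were not called (median of the 12 -0.31). *Cd274* had the same order of group means as the T cell and dendritic cell sums on the authors' scale, lowest with EPO. After centring both sums were lowest in naive mice and *Cd274* lowest with EPO (2.16 against 2.35 in naive mice). That difference of *Cd274* was not called in limma (adjusted *P* = 0.221) and was 0.16 after quantile normalization and 0.50 with limma-voom on totals. The centred sums of naive and CTLA4-Ig/EPO mice overlapped for both cell types, so the centred orders set nothing apart. The part of these cells in the levels of *Cd274*, *Cd40* and *Cd80* was not tested.

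Sums of myeloid markers were higher with EPO than with CTLA4-Ig alone. Of the red pulp macrophage genes 8 of 8 were called higher, and of the monocyte and macrophage genes 7 of 10 were higher and 0 lower. Among all genes 167 were higher and 208 lower. The neutrophil genes did not all move one way. The 10 of 12 monocyte and macrophage genes, led by *Csf1r*, summed to 14.05 ± 0.14 in naive mice, 12.55 ± 0.08 after BALB/c cells, 12.52 ± 0.06 with CTLA4-Ig added and 13.62 ± 0.12 with CTLA4-Ig/EPO, and the 8 of 12 red pulp macrophage genes, led by *Vcam1*, to 12.89 ± 0.17, 13.16 ± 0.14, 12.94 ± 0.07 and 14.76 ± 0.22. The 9 of 10 neutrophil genes, led by *S100a9*, summed to 18.58 ± 0.67 in naive mice, 14.27 ± 0.67 after BALB/c cells, 14.25 ± 0.39 with CTLA4-Ig added and 15.76 ± 0.51 with CTLA4-Ig/EPO. Of the 9, 4 were higher and 1 was lower with EPO, also after centring, beside 167 and 208 of all genes, or 126 and 276 after centring. The lower gene was *Il1r2*, whose change was the largest (-3.08, adjusted *P* = 1.23e-08). The defining neutrophil genes *Csf3r* (0.41, adjusted *P* = 0.0917), *Cxcr2* (0.30, 0.427) and *Ly6g* (0.92, 0.0655) were not called with EPO, nor was *Itgam* (0.33, 0.0881). Among lymphoid cells, the 3 of 9 NK cell genes, led by *Gzma* and without a defining one in the panel, summed to 13.12 ± 0.27, 12.62 ± 0.38, 13.24 ± 0.25 and 12.47 ± 0.17. None of the defining markers measured was at a count of 1 in any mouse. *Cd86*, whose group means stayed within 0.14 of each other, had the order of the B cell sum. Its means did not differ beyond their spread (F-test adjusted *P* = 0.473), so nothing is read from that match.

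**Figure D5:**
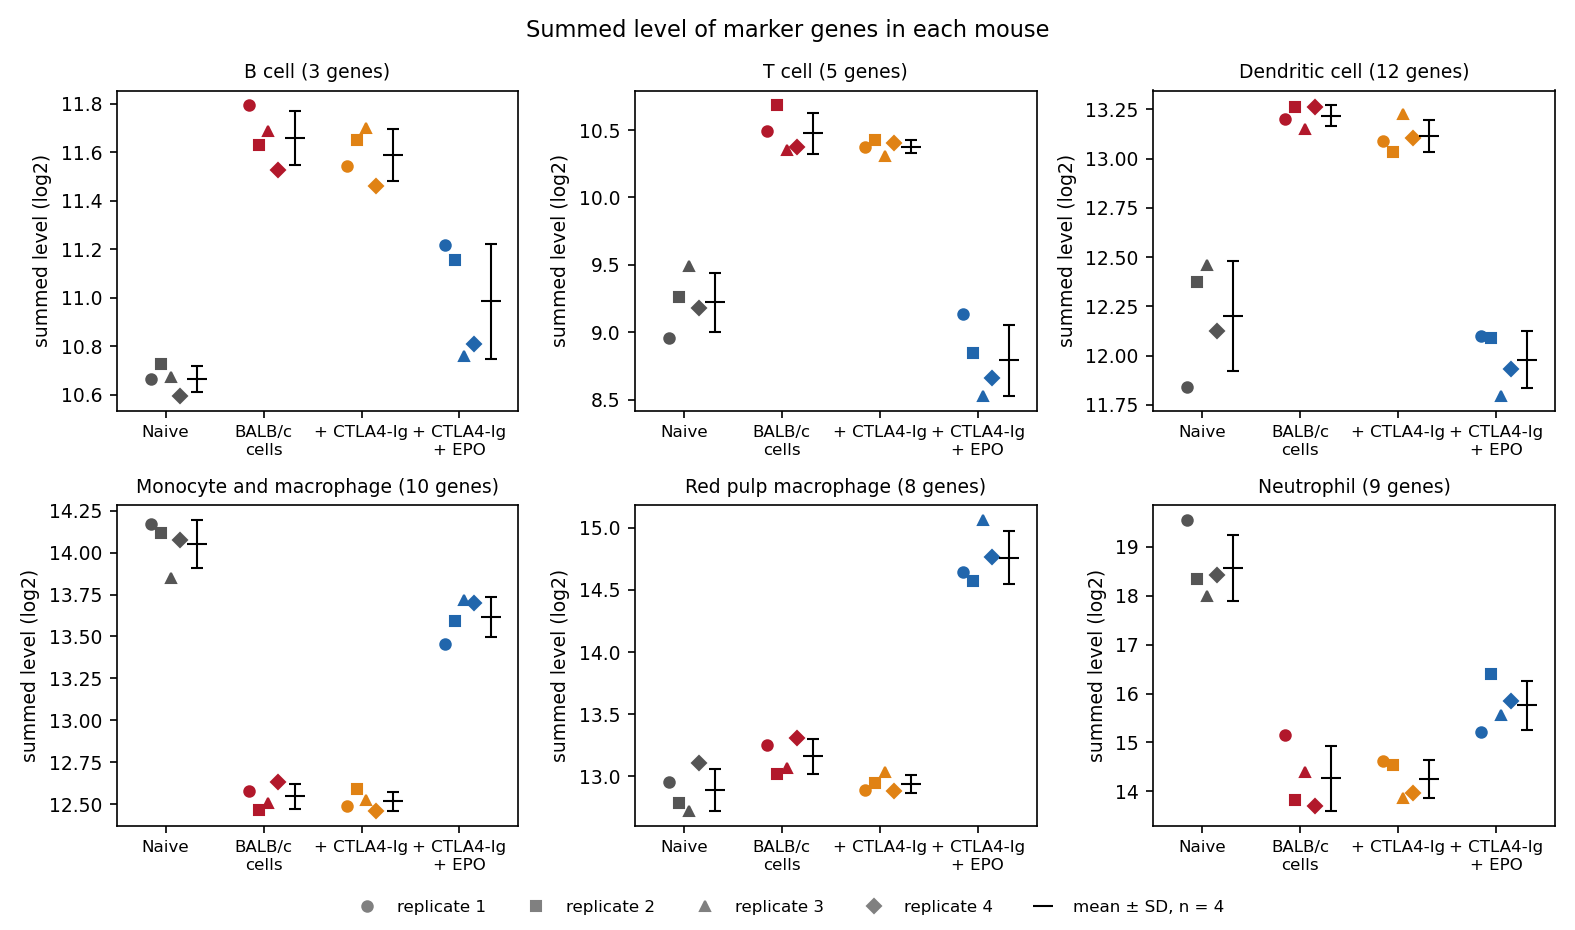
Log2 of the summed level of the marker genes of 6 cell types in each mouse (symbols mark replicate numbers) with mean ± SD (n = 4), on the authors' scale and with a vertical axis of its own in each panel. With EPO added to CTLA4-Ig, T cell markers go from 10.38 to 8.79 and dendritic cell markers from 13.11 to 11.98, while red pulp macrophage markers go from 12.94 to 14.76.

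The genes whose levels were most like those of a member were found by Pearson's *r* over the 16 mice, a description in which the points share the 4 groups and each mouse's scaling factor. *Cd274* was most like *Malt1* (*r* = 0.977), *Jun* (0.971) and *Cd83* (0.967), and after centring the values were 0.985, 0.975 and 0.991. *Cd80* was most like *Fem1c* (0.968), *Nlrp3* (0.957) and *Dusp6* (0.953), which became 0.879, 0.783 and 0.931 after centring. *Cd40* was most like *Traf2* (0.854), an adaptor of CD40 itself, then *Cd247* (0.789) and *Mmp12* (0.776), which became 0.965, 0.922 and 0.756. *Cd86* was most like *Mif* (0.687), *Sema4b* (0.657) and *Egr2* (0.593), and these became 0.965, 0.962 and 0.756 after centring. Ranked by *r* after centring, in the order named, the genes were numbers 3, 7 and 1 for *Cd274* and 20, 52 and 2 for *Cd80*. They were numbers 1, 18 and 143 for *Cd40* and 1, 2 and 113 for *Cd86*.

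Between members the values ranged widely. Over 16 mice *Cd80* and *Cd274* had an *r* of 0.474, *Cd40* and *Cd274* 0.645, *Cd80* and *Cd40* 0.238, and *Cd80* and *Cd86* -0.284, which became 0.728, 0.820, 0.372 and 0.122 after centring. *Cd86* had an *r* of 0.161 with *Cd274* and 0.115 with *Cd40* over 16 mice, and of 0.673 and 0.841 after centring. Over the 12 mice given BALB/c cells, which leaves out the step in which *Cd80* and *Cd274* went apart, these were 0.960, 0.682, 0.729 and 0.189, and *Cd80* was then more like *Cd274* than like *Fem1c* (0.946). Over those 12 mice, on the authors' scale, *Cd86* had an *r* of 0.214 with *Cd274* and -0.060 with *Cd40*. With EPO, *Malt1* fell by 1.37, *Jun* by 0.84 and *Cd83*, a surface marker of mature presenting cells, by 1.48, and among the genes most like *Cd80* *Nlrp3* fell by 1.52, *Dusp6* by 0.61 and *Fem1c* by 0.63.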

How the data were processed

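Log2 values of 734 genes, as the authors normalized and deposited them, were used for 16 mice. Each value was a whole count times a factor per mouse, and these counts were recovered for the members, for limma-voom on counts scaled by totals and for count ranges. Of all values 0.843% were at a count of 1. By the study's methods the values were normalized in limma, and how the factor was computed is not given in the sources used here. All mice were separate samples by their labels, and no mice of a group agreed within counting noise (lowest chi-square per degree of freedom 5.22).

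Group means were fitted with limma (version 3.58.1 in R 4.3.3), with moderated t and F-tests, Benjamini-Hochberg adjustment over 734 genes and a threshold of 0.05. The methods' t-test, named there for 2 groups in general while limma is named for the panel, served as an alternative. Differences between 2 members within a mouse were tested by exact permutation in Python 3.11.15 (scipy 1.17.1, numpy 2.4.6, pandas 2.3.3), and figures were drawn with matplotlib 3.10.9. The scripts were tested on simulated data with known changes.

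Replicate numbers were not treated as pairs in the main fit, since the labels give no shared block. From the values alone, mice with the same number correlated across CTLA4-Ig and CTLA4-Ig/EPO at *r* between 0.143 and 0.183 after removing group means.

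Members and lists were chosen with earlier results of these data known. Genes named are members, all genes of the lists of B7 and CD28 and TNF families, up to 4 genes called with EPO and largest in size from each other list, the 3 genes most like each member, and the leading and defining genes of marker lists, save for a result that is not reported here. *Nfkbie*, *Il1r2*, *Cd47* and *Cd244* were named after their values were seen. Symbols of 724 genes matched current RefSeq symbols, 9 matched synonyms and 1 matched none. Promoter sequences, from RefSeq GRCm38.p6, were matched for 2 of the 4 members by symbol.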

Additional observations from a re-analysis of the deposited data

Results flagged for a closer look

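In 7 of 92 groups of 4 values, for the genes of the B7 and CD28 and TNF lists, 1 mouse stood apart from the other 3 by Dixon's ratio, the gap to the nearest mouse over the range, where chance gives about 1 in 20 groups. All mice were kept. *Cd86* in naive replicate 2 had a ratio of 0.871 (log2 level 9.19, others 9.42 to 9.46). *Vsir* in CTLA4-Ig/EPO replicate 1 had 0.956 (10.65, others 10.88 to 10.89). *Cd28* in CTLA4-Ig replicate 3 had 0.842 (8.66, others 8.81 to 8.84), and *Cd27* in CTLA4-Ig replicate 1 had 0.84 (6.87, others 7.24 to 7.31). *Tnfsf4* in BALB/c cells replicate 4 had 0.855 (3.42, others 3.86 to 3.94, at a count of 17). *Tnfrsf9* in CTLA4-Ig replicate 3 had 0.903 (3.99, others 4.33 to 4.36, at a count of 27). *Tnfrsf14* in BALB/c cells replicate 1 had 0.915 (7.42, others 7.82 to 7.85).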

How the results depend on the processing

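With EPO, *Cd274* and *Cd80* were called in every alternative, between -1.41 and -1.11 and between -0.79 and -0.49. *Cd40* lay between -0.51 and -0.35 without single mice, and its call was lost without CTLA4-Ig/EPO replicate 3 or 4 and with limma-voom on totals, called totals from here (-0.32). *Cd86* was at 0.030 after quantile normalization and 0.035 with totals. With CTLA4-Ig, 70 genes passed without adjustment, 76 in the methods' t-test without adjustment and 0 to 1 without single mice, and *Cd40* passed only in that t-test (0.22). There *Cd80* was at -0.0030 after centring and between -0.056 and 0.073 without single mice, and *Cd86* between -0.048 and 0.011. BALB/c cells against naive mice gave, for centring, quantile normalization and totals, 0.10, 0.089 and 0.46 for *Cd80*, 0.87, 0.93 and 1.23 for *Cd86* and 0.81, 0.76 and 1.18 for *Cd40*. CTLA4-Ig against naive mice gave 0.10, 0.092 and 0.48 for *Cd80*, opposite in direction to the authors' scale and called higher with totals. CTLA4-Ig/EPO against naive mice gave -0.0086 with totals for *Cd80*, whose call was lost, and 0.41, 0.42 and 1.10 for *Cd40*, and 0.16 and 0.50 for *Cd274* with quantile normalization and totals, opposite in direction and called with totals, and *Cd86* lay between -0.016 and 0.10 without single mice. Against BALB/c cells *Cd86* with EPO was at 0.027 with totals. Centring moved *Tnfrsf8* to -0.034 and *Cd47* to -0.029 with EPO. *Cd244*, at 0.0079 with EPO, was at -0.00045 with array weights, -0.19 with centring, -0.010 with quantile normalization and between -0.066 and 0.066 without single mice. A limma fit that took replicate numbers as a replicate block, a pairing the labels do not state, called *Cd274* (-1.21, adjusted *P* = 5.12e-06), *Cd80* (0.000317) and *Cd40* (0.0223) but not *Cd86* (0.522) with EPO, and 400 genes in all. It changed no call of a member, and *Pdcd1lg2* passed in it (adjusted *P* = 0.0228), as did 1 more gene lower in the interferon-γ list and 1 more higher in the inhibitory list. Leaving out single mice from the pair differences with EPO, an alternative chosen after seeing the data, turned none of their directions. Mice were matched for age and sex by the study's methods, and the cause of the shift in scale was not tested.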
